A study of Mus musculus with 12 samples.

Results

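The comparison described here holds a segment of chromosome 13 constant and changes the rest of the genome. D2-13B6 mouse embryonic stem cells, which carry the B6 segment on a D2 background, were set against B6 cells, which carry the same segment on their own background. The members are 6 of the 12 libraries of the series, 3 of D2-13B6 and 3 of B6, chosen by their labels. The other libraries, 3 of D2 and 3 of the reciprocal congenic B6-13D2, enter only where the background difference is also read with the D2 segment in both lines. B6 is the inbred strain C57BL/6J and D2 is DBA/2J. The sample labels name D2-13B6 (laboratory name XE) as D2.B6-(rs29224292-rs13469455)/Bakr and B6-13D2 (QJ) as B6.D2-(rs30079041-rs51756099)/Bakr, whereas the series text ends the D2-13B6 segment at rs51756099. No coordinates of these markers were used here, so single genes of chromosome 13 were not assigned to the inside or outside of the segment. All lines grew in the same medium with 15% fetal bovine serum, leukemia inhibitory factor (LIF), 1 µM PD0325901 (an inhibitor of the kinase MEK) and 3 µM CHIR99021 (an inhibitor of the kinase GSK3). The protocol describes independent cultures of 1 cell line per strain, so background and cell line are confounded and cannot be told apart. The titles call the samples technical replicates and give B6 replicate 3 another line name than B6 replicates 1 and 2, and p-values therefore measure only the spread between these samples. One label field gives genomic DNA as the molecule, although the protocol prepares messenger RNA libraries.

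Library totals were 23433894 to 24825802 expected counts in B6 and 28430281 to 35251889 in D2-13B6, where an expected count is an estimated read count that need not be whole because reads matching several genes are divided among them. Libraries of the same group correlated across genes with r from 0.9886 to 0.9897 in B6 and from 0.993 to 0.9939 in D2-13B6, against 0.9589 to 0.9602 for a B6 library paired with a D2-13B6 library. Column names of both congenic lines start with a digit that is absent from the B6 and D2 names. If it records a batch, that batch holds all D2-13B6 libraries and no B6 library, and batch and group cannot be told apart. All 14 core pluripotency genes were measured in every library, with a summed level of 4586 to 4973 counts scaled to a common library size (CPM) in B6 and 4193 to 4289.6 CPM in D2-13B6. Markers of fibroblasts, the cells often used as feeders, summed to 15197 to 16214 CPM in B6 and 11951 to 12490.2 CPM in D2-13B6 over 12 genes, none of them at 0, while the labels used here do not mention feeders. In bulk RNA, fewer cells of a type and less RNA per cell cannot be told apart.

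As background, B6 and D2 are long-established inbred strains whose genomes differ at a great many sites, and a congenic line moves a short stretch of one genome into the other by repeated crossing. Comparing lines that share the stretch leaves the differences that come from elsewhere in the genome, together with whatever the single lines acquired in culture. Embryonic stem cells kept with LIF and both kinase inhibitors sit near the naive state of the early epiblast, in which Pou5f1, Sox2 and Nanog are on, de novo DNA methylation is low and many germline promoters are only partly silenced. Serum pulls the cells toward the later formative and primed states, in which the DNA methyltransferases Dnmt3a and Dnmt3b are higher.

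Values below are CPM after scaling by TMM, a method that assumes most genes do not differ. A gene is called when its Benjamini-Hochberg adjusted p is below 0.05 in the edgeR quasi-likelihood fit over all 12 libraries, and fold changes are D2-13B6 over B6 on the log2 scale. Of 17148 genes tested, 10120 were called, which is 59.0% of them. In D2-13B6, 4195 genes were higher (24.5%) and 5925 were lower (34.6%). The differences were mostly small: the median absolute log2 fold change of called genes was 0.43, and 1994 genes (11.6%) were called and differed by 1 or more on the log2 scale, of which 1188 were higher and 806 lower. The median log2 fold change of all genes tested was -0.06, and the counts and medians of the gene lists below stand beside these shares and this median. The groups did not overlap in CPM at 11181 genes (65.2% of those tested), 9821 of them called. The balance of directions moved with the scaling, from 41.5% of called genes higher with TMM to 49.3% with DESeq2 size factors and 54.5% with TMM computed without chromosome 11, which stood apart in D2-13B6.

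Genes were ranked among called protein-coding genes whose reads were not divided, whose groups did not overlap and whose mean log2 CPM reached 2 or more. The lowest in D2-13B6 relative to B6 were Ubd, Olig2, Pou2f3, Olig1, Nod1, AA467197, Tgm1, Elobl, Hal and Dio3. Several were at or near 0 in D2-13B6. Ubd (chr17:37193892-37196095 in GRCm38), an inflammation-inducible ubiquitin-like modifier, measured 10.1, 9.40 and 10.03 CPM in the B6 libraries and had 0 counts in all 3 D2-13B6 libraries. Against a floor of 3 counts per library it was at least 96.5-fold lower (edgeR adjusted p = 6.88e-13). Olig2 (chr16:91225457-91228677) and Olig1 (chr16:91269772-91271933) lie next to each other on chromosome 16 and encode transcription factors of the motor neuron and oligodendrocyte lineages. Olig2 measured 23.4, 22.96 and 27.5 CPM in B6 and 0.110, 0.0830 and 0.0340 CPM in D2-13B6. With 4, 3 and 1 counts in D2-13B6, the B6 level was 313.9-fold higher (exact Poisson 95% interval 159.3 to 727.1, counting error only; edgeR adjusted p = 4.39e-16). Olig1 measured 28.4, 28.8 and 29.1 CPM in B6 and 0.932, 0.747 and 0.544 CPM in D2-13B6, a log2 fold change of -5.24 (SE 0.10; adjusted p = 4.46e-17, edgeR). The third family member, Olig3, was near the detection limit in every library, at 0.132, 0.0839 and 0.171 CPM in B6 and 0.274, 0.138 and 0.408 CPM in D2-13B6, and was not called (edgeR adjusted p = 0.153).

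Pou2f3 (chr9:43123939-43210369), the POU-domain factor that specifies tuft cells, measured 28.7, 29.3 and 31.8 CPM in B6 and 0.685, 0.969 and 0.680 CPM in D2-13B6, a log2 fold change of -5.25 (SE 0.098; adjusted p = 3.5e-17, edgeR). Nod1 (chr6:54923949-54972612), a cytosolic sensor of bacterial cell wall fragments, measured 53.1, 50.8 and 55.9 CPM in B6 and 2.96, 3.49 and 3.37 CPM in D2-13B6, a log2 fold change of -4.03 (SE 0.091; adjusted p = 2.71e-16, edgeR). Tgm1 (chr14:55700009-55713926), the transglutaminase of the epidermal barrier, measured 45.02, 52.2 and 47.9 CPM in B6 and 4.22, 4.73 and 3.95 CPM in D2-13B6, a log2 fold change of -3.48 (SE 0.077; adjusted p = 2.21e-16, edgeR). The lowest B6 library lay several-fold above the highest D2-13B6 library at each of these genes. Dio3 (chr12:110279068-110281097), which inactivates thyroid hormone and sits in an imprinted domain of chromosome 12, measured 13.1, 14.5 and 15.9 CPM in B6 and 1.89, 1.58 and 1.74 CPM in D2-13B6, a log2 fold change of -3.06 (SE 0.14; adjusted p = 3.93e-12, edgeR). AA467197, Elobl on chromosome 11 and the histidine-degrading enzyme Hal fell, with log2 fold changes of -3.96, -3.36 and -3.23.

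The highest genes in D2-13B6 by the same criteria were Apoc2, Ushbp1, Efhc2, Nxf3, Mmrn2, Sytl3, Ccnb1ip1, Adam23, Lyrm7 and Rtn4rl1. Apoc2 (chr7:19671579-19677941), the activator of lipoprotein lipase, measured 0.0879, 0.0839 and 0.214 CPM in B6 and 13.2, 12.8 and 13.8 CPM in D2-13B6. The B6 libraries held 2, 2 and 5 counts, so its level was 103.1-fold higher in D2-13B6 (interval 54.3 to 225.6; edgeR adjusted p = 3.38e-14). Ushbp1 (chr8:71384272-71395802) and Efhc2 (chrX:17132049-17319368) were likewise near 0 in B6 and clearly present in D2-13B6. Ushbp1 measured 0.132, 0.126 and 0.0429 CPM in B6 and 7.68, 9.35 and 8.88 CPM in D2-13B6, 86.3-fold higher (interval 41.9 to 214.5; edgeR adjusted p = 1.38e-12). Efhc2 measured 0.0879, 0.420 and 0.300 CPM in B6 and 14.9, 15.9 and 16.1 CPM in D2-13B6, 57.5-fold higher (interval 36.8 to 95.5; edgeR adjusted p = 7.13e-14). Mmrn2 (chr14:34375465-34404287), an extracellular glycoprotein of endothelium, measured 1.49, 1.93 and 2.06 CPM in B6 and 55.4, 54.4 and 53.6 CPM in D2-13B6, a log2 fold change of 4.89 (SE 0.086; adjusted p = 2.04e-17, edgeR).

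Adam23 (chr1:63445891-63596276), a surface protein of the disintegrin family, measured 6.63, 6.80 and 7.07 CPM in B6 and 71.96, 67.4 and 68.8 CPM in D2-13B6, a log2 fold change of 3.343 (SE 0.069; adjusted p = 1.03e-16, edgeR). Ccnb1ip1 (chr14:50789248-50807732), which acts in meiotic crossover formation, measured 1.36, 1.05 and 1.16 CPM in B6 and 14.3, 14.1 and 13.3 CPM in D2-13B6, a log2 fold change of 3.54 (SE 0.12; adjusted p = 1e-13, edgeR). Nxf3 of the RNA export factor family, the Rab effector Sytl3, the complex III assembly factor Lyrm7 and the Nogo receptor relative Rtn4rl1 rose, with log2 fold changes of 5.39, 4.80, 3.02 and 3.00. Lyrm7 and Rtn4rl1 are on chromosome 11. The other 8 of the 10 highest genes lie on chromosomes 1, 7, 8, 14, 17 and X.

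**Figure D1:**
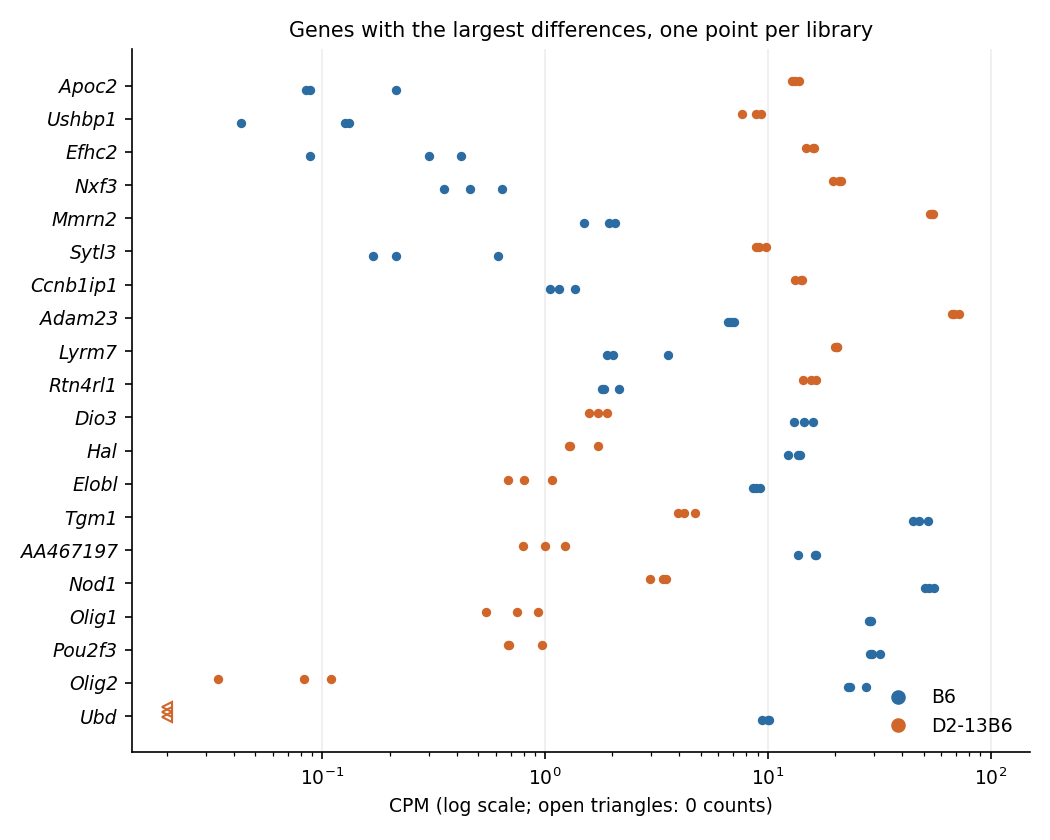
CPM (log scale) of the 10 highest and 10 lowest genes, 1 point per library, B6 in blue and D2-13B6 in orange; open triangles at the left edge are libraries with 0 counts. The genes were chosen with no overlap of the groups as a criterion, and Ubd had 0 counts in all 3 D2-13B6 libraries.

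Genes whose reads were divided among similar copies showed differences of the same size, but their split between copies is uncertain. Tpm3-rs7, a copy of a tropomyosin gene, measured 0.483, 0.546 and 0.472 CPM in B6 and 130.3, 128 and 133 CPM in D2-13B6. Xlr3c of an X-linked multicopy family measured 0.439, 0.672 and 0.643 CPM in B6 and 19.7, 21.9 and 20.5 CPM in D2-13B6, and Pramef17 of the Prame family measured 0.307, 0.252 and 0.557 CPM in B6 and 13.1, 13.8 and 14.5 CPM in D2-13B6. All 3 were called higher, at log2 fold changes of 8.01, 5.13 and 5.19. On the other side, the X-linked gene model Gm21887 measured 205, 271 and 222 CPM in B6 and 4.44, 6.12 and 5.95 CPM in D2-13B6. Msc, a bHLH factor, measured 9.40, 10.1 and 10.1 CPM in B6 and 0.329, 0.166 and 0.442 CPM in D2-13B6, and the arginine deiminase Padi2 measured 10.5, 10.95 and 10.7 CPM in B6 and 0.466, 0.498 and 0.714 CPM in D2-13B6. Their log2 fold changes were -5.41, -5.00 and -4.27.

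The same background difference can be read with the D2 segment in both lines, as D2 against B6-13D2, in libraries that the first comparison does not use. In it 12800 genes were called (74.6%), 6512 higher and 6288 lower on the D2 background, with a median absolute log2 fold change of 0.727 among called genes. A total of 8120 genes were called in both comparisons, 4986 in the same direction (29.1% of genes tested) and 3134 in opposite directions. The 4986 genes are 49.3% of the genes called in D2-13B6 against B6 and 39.0% of those called in D2 against B6-13D2. Across all genes the log2 fold changes of both comparisons correlated with r = 0.416 (Spearman's rho 0.204), a description over genes that share libraries, depth and normalization within each comparison. The difference of the background effect between segment alleles was called for 11059 genes (64.5%). It equals both congenic lines minus both parental lines, so anything the congenic libraries share enters it. Segment allele, cell line and a possible batch cannot be told apart in it, here and wherever it is named below. The digit in the column names falls on the D2 background in the first comparison and on the B6 background in the second.

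Ubd, Olig2, Olig1 and Ushbp1 were chosen for large differences in both comparisons. Ubd was at 0 counts in D2 replicates 1 and 3 and at 12.7, 13.7 and 11.8 CPM in B6-13D2, and was called lower on the D2 background there too (edgeR adjusted p = 1.11e-13). Olig2 measured 0.0416, 0.0278 and 0.0910 CPM in D2 and 36.6, 42.7 and 38.2 CPM in B6-13D2, and Olig1 0.583, 0.751 and 0.819 CPM in D2 and 37.04, 38.2 and 37.4 CPM in B6-13D2. Both were called lower on the D2 background, and a difference between segment alleles was not called for either (edgeR adjusted p = 0.189 and 0.103). Ushbp1, higher on the D2 background in both, measured 4.998, 6.12 and 6.74 CPM in D2 and 0.104, 0.235 and 0.113 CPM in B6-13D2. All 20 of the highest and lowest genes named above by those criteria except Rtn4rl1 were called in the same direction in both comparisons, and for 13 of the 20 the size of the difference was called as unequal between segment alleles. Rtn4rl1, on chromosome 11, had a log2 fold change of 0.15 in D2 against B6-13D2 (edgeR adjusted p = 0.259). Of the 6 named genes with divided reads, Xlr3c was called in the opposite direction there, with a log2 fold change of -1.15 (edgeR adjusted p = 6.25e-06), and the other 5 in the same direction.

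Other genes went in opposite directions. Cxcr6, a chemokine receptor, measured 10.5, 9.70 and 9.05 CPM in B6 and 4.03, 3.96 and 3.27 CPM in D2-13B6, and 12.2, 13.04 and 10.2 CPM in D2 and 1.90, 1.21 and 1.09 CPM in B6-13D2. Its log2 fold changes were -1.37 on the B6 segment and 3.07 on the D2 segment. The chemokine Cxcl14 measured 143, 145 and 141 CPM in B6 and 61.6, 63.3 and 59.2 CPM in D2-13B6, a log2 fold change of -1.22, against 2.83 on the D2 segment. The osteocalcin family gene Bglap3 gave 2.49 and -1.66. Over the 4 groups, B6-13D2 and D2 were the extremes for Cxcr6 and Cxcl14, with B6 and D2-13B6 between them.

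**Figure D2:**
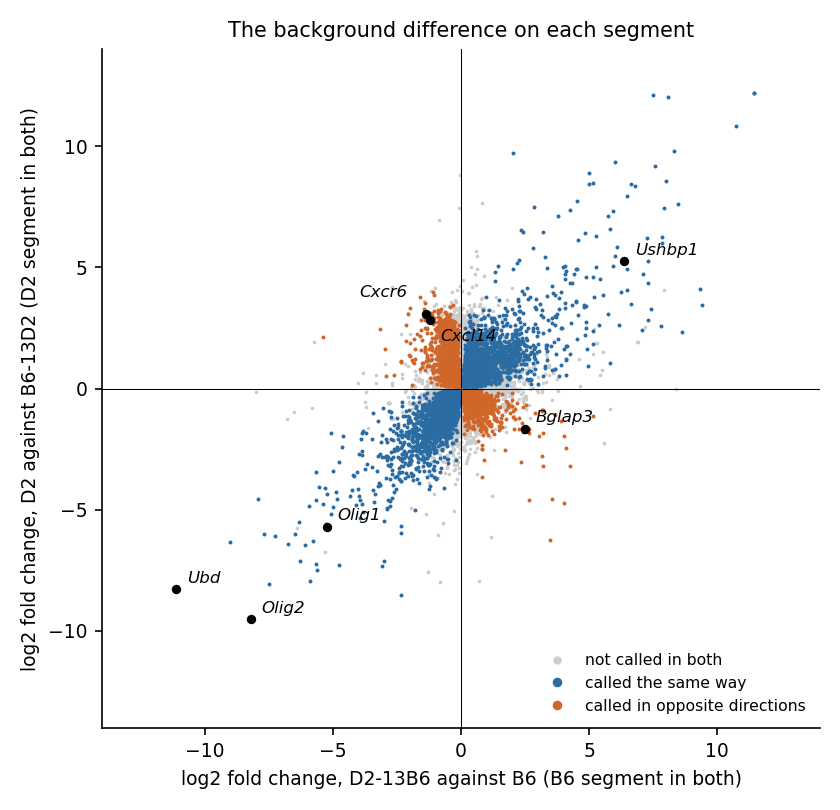
Log2 fold change of D2-13B6 against B6 (horizontal) and of D2 against B6-13D2 (vertical), 1 point per gene tested. Blue marks the 4986 genes called in the same direction in both, orange the 3134 called in opposite directions, grey the rest; named points are the genes chosen for the largest shared and the largest opposite differences.

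Pluripotency genes were on in all libraries, and most differed by less than a log2 fold change of 0.5. Of 14 core genes 12 were called (85.7%, against 59.0% of all genes), 4 higher and 8 lower, with a median of -0.14 against -0.06 over all genes; with TMM computed without chromosome 11 the counts were 5 higher and 4 lower. The central factor Pou5f1 measured 678, 645 and 752 CPM in B6 and 615, 614 and 626 CPM in D2-13B6, a log2 fold change of -0.16 (SE 0.045; adjusted p = 0.00497, edgeR). Its partner Sox2 measured 365, 355 and 404 CPM in B6 and 341, 316 and 319.7 CPM in D2-13B6, a log2 fold change of -0.20 (SE 0.052; adjusted p = 0.0029, edgeR). Nanog measured 639, 692 and 691 CPM in B6 and 653, 670.3 and 672 CPM in D2-13B6 and was not called (edgeR adjusted p = 0.697). The B6 and D2-13B6 ranges overlapped for Nanog and lay close together for Pou5f1 and Sox2, which were not called with TMM computed without chromosome 11, nor was Pou5f1 with DESeq2 size factors. Pou5f1 and Nanog have divided reads.

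Larger differences came from a few members. Dppa3, a maternal factor that opposes Uhrf1 and DNA methylation upkeep, measured 18.8, 18.5 and 17.7 CPM in B6 and 2.74, 3.07 and 2.45 CPM in D2-13B6, a log2 fold change of -2.73 (SE 0.12; adjusted p = 3.67e-12, edgeR). Lin28a, the RNA-binding protein that blocks let-7 maturation, measured 188, 186 and 201 CPM in B6 and 74.6, 76.1 and 78.7 CPM in D2-13B6, a log2 fold change of -1.32 (SE 0.039; adjusted p = 8.08e-15, edgeR). Fgf4, the growth factor that drives exit from pluripotency, measured 247, 253 and 262 CPM in B6 and 151, 154 and 157 CPM in D2-13B6, a log2 fold change of -0.72 (SE 0.036; adjusted p = 1.28e-11, edgeR). Among core genes that were higher, Dppa2, an activator of early embryonic genes, measured 69.8, 71.2 and 73.01 CPM in B6 and 118, 119 and 123 CPM in D2-13B6, a log2 fold change of 0.75 (SE 0.049; adjusted p = 5.15e-10, edgeR), with divided reads. Its partner Dppa4 and the chromatin factor Utf1 rose, with log2 fold changes of 0.20 and 0.42. Sall4 fell, with a log2 fold change of -0.33. The small differences of Dppa5a (-0.20) and Tdgf1 (-0.12) were not called with either other scaling, that of Zfp42 (0.16) was not called without B6 replicate 1, B6 replicate 2 or D2-13B6 replicate 3, and Trim71 (0.07) was not called. Dppa4, Sall4 and Tdgf1 also have divided reads.

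The naive factors were lower in D2-13B6: 1 of 14 was called higher and 9 lower, with a median of -0.27, against 8 lower with DESeq2 size factors and 8 with TMM computed without chromosome 11. Their summed level was 3947 to 3998 CPM in B6 and 3122 to 3135 CPM in D2-13B6. Tfcp2l1, a LIF and Wnt target that sustains self-renewal, measured 880.3, 855 and 832 CPM in B6 and 505, 499.5 and 495 CPM in D2-13B6, a log2 fold change of -0.78 (SE 0.033; adjusted p = 1.77e-12, edgeR). The nuclear receptor Nr5a2 measured 79.3, 79.7 and 75.9 CPM in B6 and 47.7, 45.3 and 47.6 CPM in D2-13B6, a log2 fold change of -0.74 (SE 0.044; adjusted p = 1.74e-10, edgeR). Klf4 measured 414, 421 and 419 CPM in B6 and 278, 283 and 268 CPM in D2-13B6, a log2 fold change of -0.60 (SE 0.034; adjusted p = 9.24e-11, edgeR). Tbx3, Nr0b1, Klf5, Esrrb and Fbxo15 fell, with log2 fold changes of -0.45, -0.39, -0.39, -0.27 and -0.27. The 1 that was higher was Zfp42, whose groups overlapped. Klf2, Prdm14, Tcl1 and Nanog were not called. In D2 against B6-13D2 no naive factor was called higher and 12 were called lower; the fibroblast marker sums were 21074 to 24195 CPM in D2 against 6715 to 6803 CPM in B6-13D2, and their part in the result was not tested.

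Formative and primed genes showed the reverse balance, 8 of 15 called higher and 1 lower, with a median of 0.27. Lef1, the transcription factor of Wnt signalling that accompanies the formative transition, measured 7.82, 8.73 and 7.80 CPM in B6 and 33.1, 35.03 and 35.1 CPM in D2-13B6, a log2 fold change of 2.08 (SE 0.065; adjusted p = 1.75e-14, edgeR). The epithelial regulator Grhl2 measured 3.25, 4.36 and 3.73 CPM in B6 and 9.76, 10.96 and 11.1 CPM in D2-13B6, a log2 fold change of 1.48 (SE 0.12; adjusted p = 5.89e-09, edgeR). The keratin Krt18 measured 7.25, 6.46 and 8.79 CPM in B6 and 15.5, 15.9 and 16.9 CPM in D2-13B6, a log2 fold change of 1.10 (SE 0.092; adjusted p = 1.29e-08, edgeR). Sall2, Pou3f1 and, on chromosome 11, Etv4 rose, with log2 fold changes of 0.48, 0.47 and 0.27, and the N-cadherin gene Cdh2 fell, with a log2 fold change of -0.16 that was not called with TMM computed without chromosome 11. The classical formative markers Otx2 and Fgf5 were not called: Otx2 measured 2.20, 2.52 and 1.97 CPM in B6 and 2.36, 2.93 and 2.18 CPM in D2-13B6 and Fgf5 0.615, 0.378 and 0.557 CPM in B6 and 0.658, 0.470 and 0.408 CPM in D2-13B6. The higher members therefore did not include these classical markers, which were low in all libraries.

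**Figure D3:**
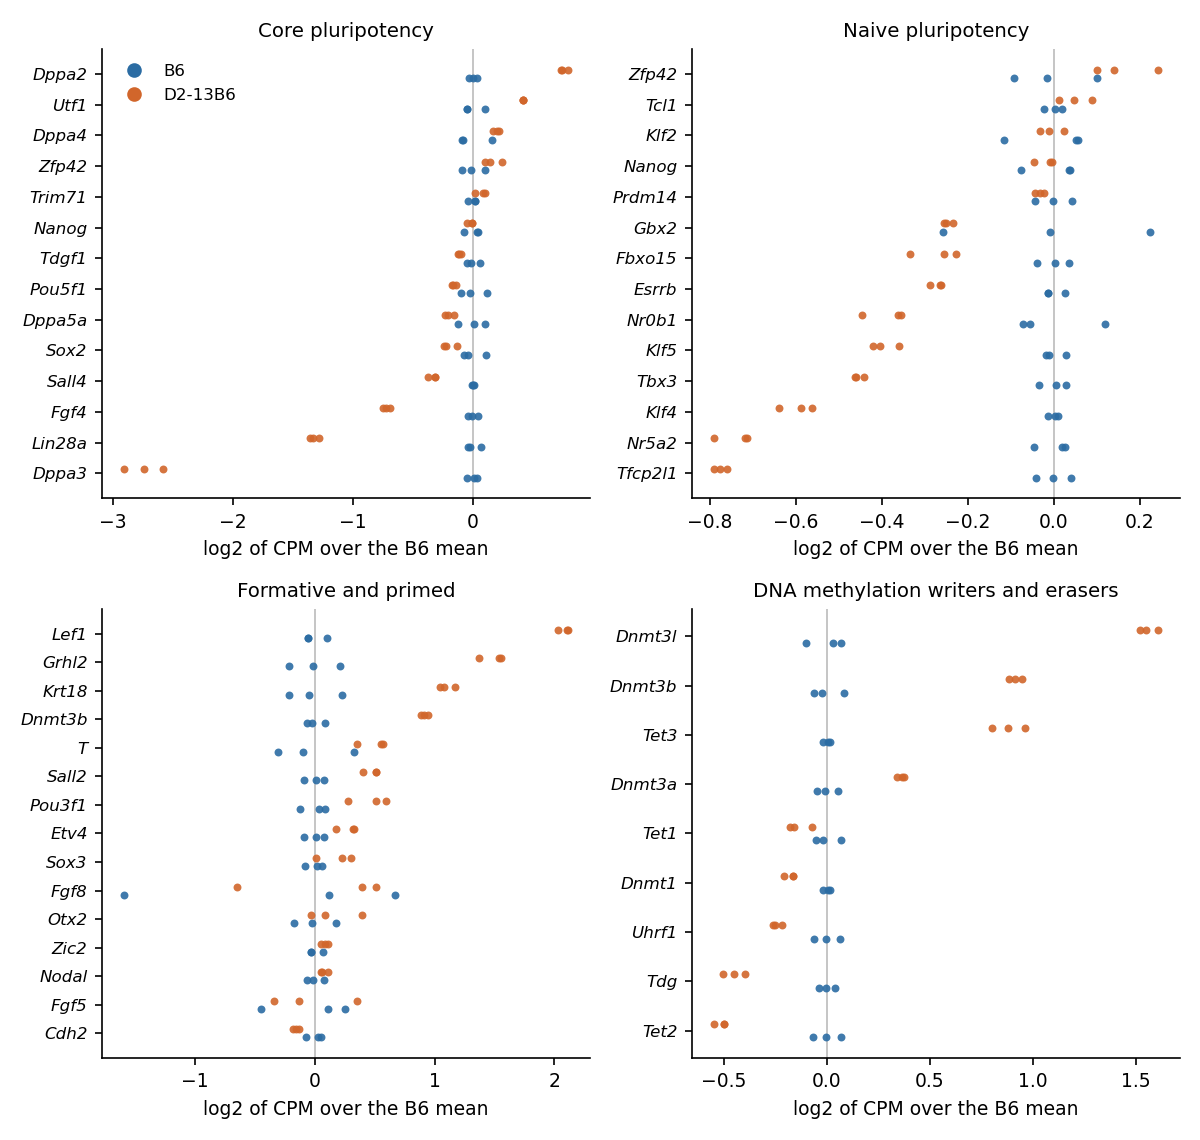
Log2 of CPM over the B6 mean for every member of 4 lists, 1 point per library, B6 in blue and D2-13B6 in orange; the grey line marks the B6 mean, and genes are ordered by fold change. Most naive factors lie left of the line in D2-13B6, Lef1 and Dnmt3l lie far to the right, and Dppa3 far to the left.

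All 9 writers and erasers of DNA methylation were called, 4 higher and 5 lower, with a median of -0.14. The de novo side was higher in D2-13B6. Dnmt3l, the cofactor without catalytic activity, measured 82.2, 75.1 and 84.5 CPM in B6 and 231, 236 and 245 CPM in D2-13B6, a log2 fold change of 1.56 (SE 0.042; adjusted p = 2.78e-15, edgeR). Dnmt3b measured 92.2, 94.7 and 102 CPM in B6 and 181, 178 and 185 CPM in D2-13B6, a log2 fold change of 0.91 (SE 0.040; adjusted p = 2.19e-12, edgeR), with divided reads. Dnmt3a measured 75.5, 73.4 and 78.9 CPM in B6 and 97.7, 98.5 and 96.2 CPM in D2-13B6, a log2 fold change of 0.36 (SE 0.042; adjusted p = 8.43e-07, edgeR). The maintenance methyltransferase Dnmt1 and its recruiter Uhrf1 fell, with log2 fold changes of -0.18 and -0.24. Among the erasers, Tet3 measured 17.2, 16.9 and 17.4 CPM in B6 and 31.6, 33.5 and 29.9 CPM in D2-13B6, a log2 fold change of 0.88 (SE 0.062; adjusted p = 1.47e-09, edgeR). Tet2 measured 209, 199 and 190.1 CPM in B6 and 141, 141 and 136 CPM in D2-13B6, a log2 fold change of -0.52 (SE 0.042; adjusted p = 1.02e-08, edgeR). Tet1 and the glycosylase Tdg fell, with log2 fold changes of -0.14 and -0.45; Tet1 was the 1 member not called with either other scaling. In D2 against B6-13D2, 7 of the 9 were called, all in the same direction as on the B6 segment, and Dnmt3a and Tet1 were not called. Uhrf1 and Tdg also have divided reads.

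Germline genes that DNA methylation keeps silent in somatic cells were changed in both directions. Of 19 tested, 9 were higher and 7 lower (84.2% called, against 59.0% of all genes), with a median of 0.16, and the counts were the same with DESeq2 size factors and with TMM computed without chromosome 11. Sycp3, a component of the synaptonemal complex that pairs meiotic chromosomes, measured 5.14, 4.45 and 4.80 CPM in B6 and 0.219, 0.277 and 0.374 CPM in D2-13B6, a log2 fold change of -4.05 (SE 0.23; adjusted p = 6.47e-11, edgeR), with divided reads. Its partner in the same complex, Sycp1, went the other way, at 4.26, 5.33 and 4.24 CPM in B6 and 11.2, 12.2 and 11.4 CPM in D2-13B6, a log2 fold change of 1.33 (SE 0.097; adjusted p = 2.27e-09, edgeR). Ddx4 (chr13:112598333-112652475), the germ cell RNA helicase known as Vasa, measured 14.3, 13.8 and 12.6 CPM in B6 and 2.49, 2.68 and 2.08 CPM in D2-13B6, a log2 fold change of -2.48 (SE 0.10; adjusted p = 1.26e-12, edgeR). The meiotic cohesin subunit Stag3 measured 18.1, 17.1 and 17.4 CPM in B6 and 5.13, 5.31 and 5.41 CPM in D2-13B6, a log2 fold change of -1.73 (SE 0.097; adjusted p = 7.45e-11, edgeR).

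On the higher side, the meiotic cohesin subunit Smc1b measured 2.24, 3.82 and 2.06 CPM in B6 and 11.7, 10.8 and 12.6 CPM in D2-13B6, a log2 fold change of 2.10 (SE 0.16; adjusted p = 3.51e-09, edgeR). Hormad1, which marks unpaired meiotic chromosomes, measured 11.3, 12.8 and 11.1 CPM in B6 and 42.9, 41.6 and 43.4 CPM in D2-13B6, a log2 fold change of 1.86 (SE 0.070; adjusted p = 2.74e-13, edgeR). The translational regulator Dazl measured 15.3, 17.5 and 17.2 CPM in B6 and 39.3, 39.5 and 37.5 CPM in D2-13B6, a log2 fold change of 1.22 (SE 0.064; adjusted p = 2.71e-11, edgeR). The testis bromodomain protein Brdt measured 4.04, 4.07 and 3.99 CPM in B6 and 10.3, 9.91 and 8.68 CPM in D2-13B6, a log2 fold change of 1.26 (SE 0.11; adjusted p = 1.77e-08, edgeR). Members of the same machinery therefore sat on both sides, with no overlap between groups at any of these genes. Piwil2, which acts in piRNA silencing, fell, with a log2 fold change of -0.88, as did the homeobox gene Rhox6, with divided reads, at -1.52; Fkbp6 and Stk31 rose, with log2 fold changes of 0.84 and 0.34. Tdrd1, Asz1 and Tex101 stayed below 2 CPM in all 6 libraries. On the D2 segment 7 were higher and 6 lower: Sycp3, Ddx4 and Stag3 were again lower on the D2 background, Brdt and Sycp1 again higher, Hormad1 was not called, and Dazl and Smc1b were called lower.

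**Figure D4:**
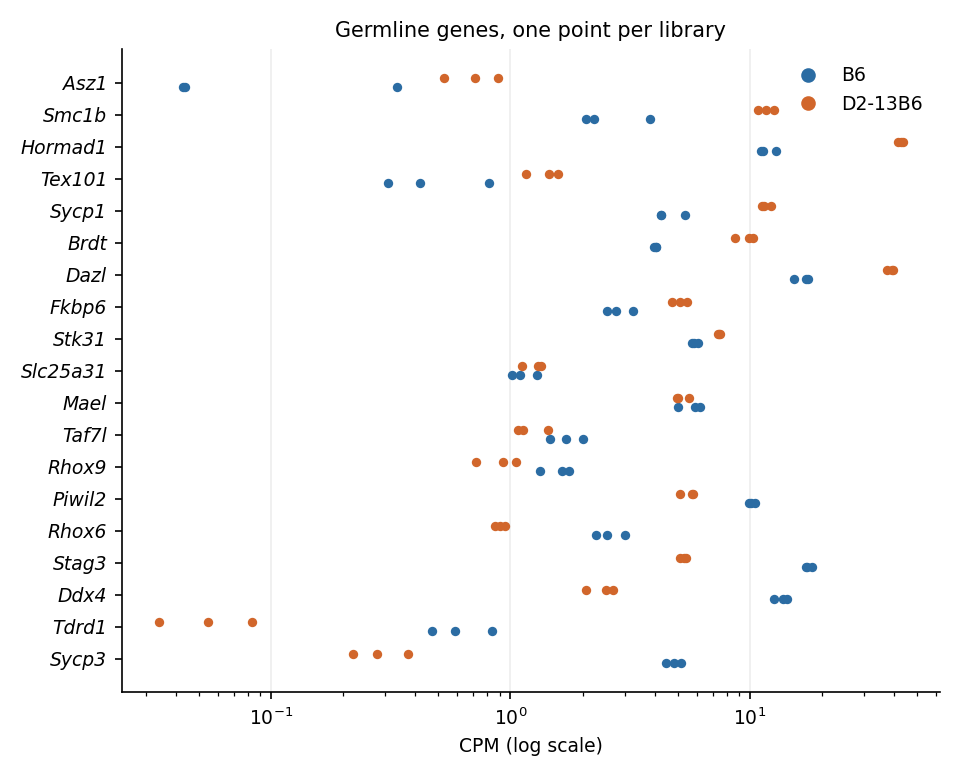
CPM (log scale) of the 19 germline genes in each library, B6 in blue and D2-13B6 in orange, ordered by fold change. Genes above Slc25a31 were called higher and genes below Taf7l lower; Slc25a31, Mael and Taf7l were not called.

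Promoters of such genes often carry the E-box CACGTG, the site that the germline repressors of the E2F6 and MGA complex recognise through MAX. RefSeq promoter windows of 300 bases (250 before and 50 after the start, GRCm38.p6) were matched for 16 of the 19 genes. The letters CACGTG, which read the same on both strands, occurred in 12 of the 16 windows (75.0%), against 1957 of 27025 windows of all genes (7.24%). They were in 4 of 4 windows of lower genes, in 5 of 9 of higher genes and in 3 of 3 of genes not called. The windows of 4 genes with undivided reads are shown because Ddx4 and Stag3 fell and Hormad1 and Brdt rose while all hold the E-box, given in capitals. They lie at chr13:112652261-112652560 on the minus strand, chr5:138280259-138280558 on the plus strand, chr3:95559427-95559726 on the plus strand and chr5:107330944-107331243 on the plus strand, and are printed 5′ to 3′ along the gene.
Ddx4: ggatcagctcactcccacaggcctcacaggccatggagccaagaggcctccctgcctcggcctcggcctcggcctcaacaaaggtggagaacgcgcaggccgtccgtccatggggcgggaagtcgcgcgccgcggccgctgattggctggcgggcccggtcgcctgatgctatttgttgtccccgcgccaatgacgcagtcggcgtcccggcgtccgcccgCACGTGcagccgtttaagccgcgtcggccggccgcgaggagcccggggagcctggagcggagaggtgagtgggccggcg
Stag3: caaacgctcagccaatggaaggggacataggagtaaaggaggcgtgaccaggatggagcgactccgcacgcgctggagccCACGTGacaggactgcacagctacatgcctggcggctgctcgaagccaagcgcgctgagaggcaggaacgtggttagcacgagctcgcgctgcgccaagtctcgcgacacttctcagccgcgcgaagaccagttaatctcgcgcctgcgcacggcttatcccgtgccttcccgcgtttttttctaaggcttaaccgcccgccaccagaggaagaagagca
Hormad1: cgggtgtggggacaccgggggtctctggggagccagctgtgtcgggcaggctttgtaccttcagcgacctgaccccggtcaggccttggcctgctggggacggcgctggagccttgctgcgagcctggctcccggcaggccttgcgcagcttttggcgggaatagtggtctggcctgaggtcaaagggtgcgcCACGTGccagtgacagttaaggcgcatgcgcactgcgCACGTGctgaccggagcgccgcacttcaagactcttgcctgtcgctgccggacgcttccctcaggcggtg
Brdt: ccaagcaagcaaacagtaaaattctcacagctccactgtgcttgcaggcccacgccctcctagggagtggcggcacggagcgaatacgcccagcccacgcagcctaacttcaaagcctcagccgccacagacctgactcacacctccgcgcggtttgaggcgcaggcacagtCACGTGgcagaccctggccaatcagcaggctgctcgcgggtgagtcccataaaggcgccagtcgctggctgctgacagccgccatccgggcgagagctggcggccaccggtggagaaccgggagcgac
The windows are rich in CG dinucleotides, with a median of 22.5 over the germline windows against 7.0 over all windows.

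Genes of the two-cell-like state, a rare state that resembles the embryo after its first division, were lower in D2-13B6. Of 12 listed genes 9 were tested, 7 were called lower and 0 higher, also with both other scalings, and the median was -1.51; their summed level was 46.0 to 47.0 CPM in B6 and 29.7 to 33.4 CPM in D2-13B6. Zscan4f measured 22.8, 22.7 and 24.95 CPM in B6 and 15.4, 17.96 and 16.4 CPM in D2-13B6, a log2 fold change of -0.50 (SE 0.075; adjusted p = 1.94e-05, edgeR). Zscan4c measured 10.7, 11.6 and 10.03 CPM in B6 and 7.73, 8.11 and 9.32 CPM in D2-13B6, a log2 fold change of -0.37 (SE 0.11; adjusted p = 0.0083, edgeR). The other called members were below 4 CPM, and 8 of the 9 have divided reads. On the D2 segment the direction was the opposite, 8 higher and 1 lower on the D2 background, and the difference between segment alleles was called for 8 of the 9, with a summed level of 162.1 to 196.6 CPM in D2 and 38.9 to 42.0 CPM in B6-13D2. The fibroblast marker sums moved with the list, lower in D2-13B6 than in B6 but higher in D2 than in B6-13D2, and their part in the result was not tested.

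Genes that build and read heterochromatin, the subject of the series title, changed by small amounts. Of 12 genes of H3K9 methylation and its HP1 readers, 5 were higher and 5 lower, with a median of -0.01. Wiz, a zinc finger partner of the H3K9 methyltransferases Ehmt1 and Ehmt2, measured 115, 116 and 112 CPM in B6 and 76.3, 72.4 and 68.1 CPM in D2-13B6, a log2 fold change of -0.66 (SE 0.045; adjusted p = 1.05e-09, edgeR). The HP1 gene Cbx3 measured 244, 247 and 246 CPM in B6 and 173, 163 and 174 CPM in D2-13B6, a log2 fold change of -0.53 (SE 0.035; adjusted p = 6.13e-10, edgeR), while the HP1 gene Cbx5 rose, with a log2 fold change of 0.18. Suv39h1 fell, with a log2 fold change of -0.37, and Suv39h2 rose, with a log2 fold change of 0.29, both writers of H3K9 trimethylation at pericentromeric repeats. The corepressor Trim28, which links KRAB zinc finger proteins to Setdb1, measured 1822, 1777 and 1739.8 CPM in B6 and 1899, 1873 and 1869.9 CPM in D2-13B6, a log2 fold change of 0.08 (SE 0.029; adjusted p = 0.0267, edgeR), which was called in the full set but with only 1 of the 6 leave-one-out sets. H3K9 demethylases gave 1 higher and 3 lower of 7 tested, with a median of -0.09; Kdm7a measured 21.3, 20.3 and 21.99 CPM in B6 and 39.3, 38.5 and 40.2 CPM in D2-13B6, a log2 fold change of 0.89 (SE 0.057; adjusted p = 3.69e-10, edgeR). Wiz, Cbx3, Suv39h1 and Kdm7a have divided reads.

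Of 11 histone chaperone, HUSH and MORC genes, 1 was higher and 7 lower (median -0.15), or 2 and 4 with TMM computed without chromosome 11. The H3.3 chaperone Hira measured 114, 112 and 113 CPM in B6 and 86.3, 85.1 and 86.96 CPM in D2-13B6, a log2 fold change of -0.39 (SE 0.031; adjusted p = 6.51e-09, edgeR), the replication-coupled chaperone Chaf1a fell, with a log2 fold change of -0.33, and Morc2a, on chromosome 11, rose, with a log2 fold change of 0.22. Cohesin and CTCF, which fold the genome into loops, gave 0 higher and 8 lower of 11 (median -0.17), but 2 higher and 4 lower with DESeq2 size factors and 3 higher and 3 lower with TMM computed without chromosome 11. The cohesin release factor Wapl measured 306, 308 and 295 CPM in B6 and 216, 217 and 216 CPM in D2-13B6, a log2 fold change of -0.49 (SE 0.040; adjusted p = 1.07e-08, edgeR), with divided reads. Smc1a and Rad21 fell, with log2 fold changes of -0.37 and -0.27, and all 11 members lay between -0.49 and 0.08. Hira, Chaf1a and Morc2a also have divided reads.

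Polycomb genes, which place and read H3K27 and H2A marks on developmental genes, were counted by chromosome. All 3 PRC2 genes on chromosome 11 were higher: Ezh1 by 0.73, Suz12 by 0.65 and Epop by 0.38. Suz12, a core subunit, measured 369, 390.2 and 396 CPM in B6 and 609.7, 607 and 600.1 CPM in D2-13B6, with divided reads. Of the 8 PRC2 genes elsewhere 1 was higher and 6 lower (median -0.23), with the catalytic subunit Ezh2 at -0.28, Eed at -0.26 and Rbbp4 at -0.42, both with divided reads. Among PRC1 genes of chromosome 11, Cbx2, Cbx8 and Pcgf2 rose, with log2 fold changes of 0.91, 0.76 and 0.48. Of the 14 PRC1 genes elsewhere 7 were also higher and 3 lower (median 0.09). The PRC1 subunit Cbx2 measured 25.6, 25.2 and 26.4 CPM in B6 and 48.7, 50.7 and 45.8 CPM in D2-13B6, a log2 fold change of 0.91 (SE 0.051; adjusted p = 5.86e-11, edgeR).

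Genes of chromosome 11 were higher in D2-13B6 as a whole. Of 1386 tested, 934 were called (67.4%), 770 higher (55.6%, against 24.5% of all genes) and 164 lower. Their median log2 fold change was 0.29 against -0.09 on the other autosomes, a shift of 0.38 or 1.30 on the linear scale. Read per library against the B6 mean, the shift was 0.33, 0.36 and 0.35 in D2-13B6 replicates 1 to 3 and within 0.003 of 0 in the B6 libraries. It was positive in all 13 windows of 10 Mb, from 0.26 to 0.54. In D2 against B6-13D2 chromosome 11 was shifted by -0.02, and in D2 against B6, which shares the B6 libraries, by 0.004. The D2-13B6 cell line and its genotype are confounded and cannot be told apart.

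Chromosome 13, which holds the shared segment, had a share of called genes near the background, 380 of 638 tested (59.6%). Directions were unequal: 85 were higher (13.3%) and 295 lower (46.2%), with a median of -0.20 and a shift of -0.14 from the other autosomes. In the window from 110 to 120 Mb 35 of 47 genes were called, 33 of them lower, and the median was -0.55. Among protein-coding genes of chromosome 13 with undivided reads, no overlap between groups and a mean log2 CPM of at least 2, the largest differences were those of Ddx4, described above, Tfap2a, Glrx and Elovl7. Tfap2a (chr13:40715302-40738376), a neural crest and trophoblast transcription factor, measured 2.94, 3.69 and 4.03 CPM in B6 and 15.3, 14.1 and 17.6 CPM in D2-13B6, a log2 fold change of 2.13 (SE 0.11; adjusted p = 3.68e-11, edgeR). The glutaredoxin Glrx (chr13:75839868-75850154) measured 7.91, 8.81 and 8.19 CPM in B6 and 31.2, 32.5 and 33.99 CPM in D2-13B6, a log2 fold change of 1.97 (SE 0.067; adjusted p = 6.31e-14, edgeR). The fatty acid elongase Elovl7 (chr13:108214404-108285683) measured 9.005, 10.6 and 10.4 CPM in B6 and 3.59, 2.85 and 2.42 CPM in D2-13B6, a log2 fold change of -1.74 (SE 0.13; adjusted p = 3.17e-09, edgeR). All 4 kept their direction in D2 against B6-13D2 and were called there. The chromosome as a whole did not keep its direction: it was shifted by 0.08 from the other autosomes in D2 against B6-13D2. In D2 against B6, which shares the B6 libraries, the shift was 0.02. The share of calls on chromosome 13 thus lay inside the range of the other autosomes, from 53.4% on chromosome 9 to 67.4% on chromosome 11.

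**Figure D5:**
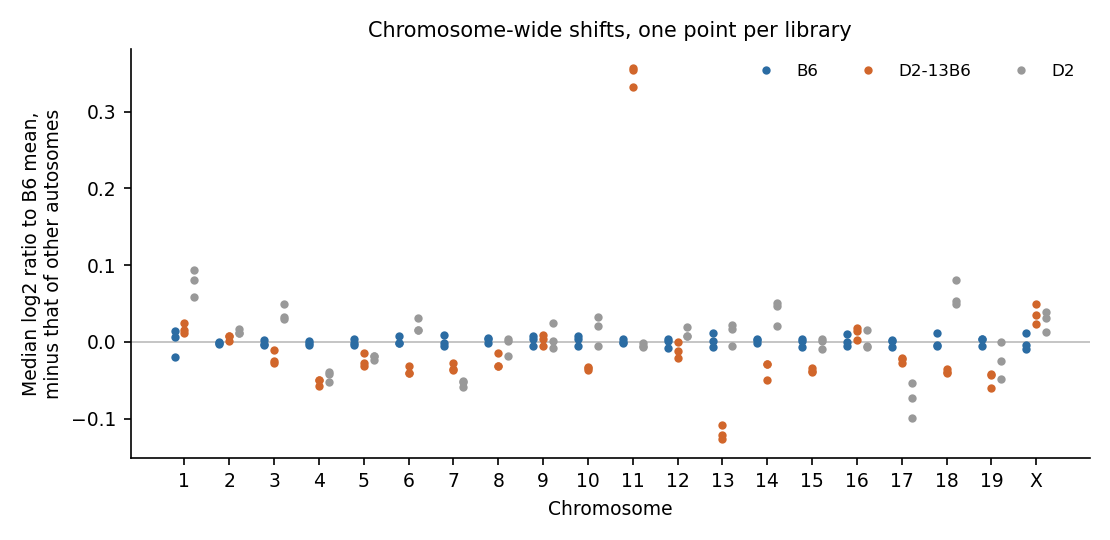
Median log2 ratio to the B6 mean of the genes of each chromosome, minus that of the other autosomes, 1 point per library of B6 (blue), D2-13B6 (orange) and D2 (grey). Chromosome 11 stands above 0.3 in all 3 D2-13B6 libraries and near 0 in D2, and chromosome 13 lies below -0.1 in D2-13B6.

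Zinc finger genes with a Zfp symbol, many of them fast-evolving KRAB repressors that recruit Trim28, were counted by chromosome. On chromosome 4, 8 of 29 Zfp genes were higher and 18 lower (26 called, 89.7%), with a median of -0.38. Zfp989 measured 45.8, 49.9 and 45.8 CPM in B6 and 6.47, 6.70 and 7.995 CPM in D2-13B6, a log2 fold change of -2.75 (SE 0.069; adjusted p = 9.64e-16, edgeR). Zfp534 measured 126, 130.4 and 131 CPM in B6 and 25.5, 27.2 and 25.7 CPM in D2-13B6, a log2 fold change of -2.30 (SE 0.050; adjusted p = 1.92e-16, edgeR). Zfp993, Zfp984, Zfp992, Zfp986 and Zfp991 fell, with log2 fold changes of -2.20, -1.56, -1.54, -1.45 and -1.06. All 7 also fell in D2 against B6-13D2, and all 7 have reads divided among similar genes. Zfp69, with undivided reads, measured 1.71, 1.97 and 1.84 CPM in B6 and 6.30, 7.61 and 6.77 CPM in D2-13B6, a log2 fold change of 1.90 (SE 0.14; adjusted p = 3.6e-09, edgeR). On chromosome 13, 3 of 34 were higher and 9 lower (35.3% called, median -0.11), or 6 and 5 with TMM computed without chromosome 11. Zfp934, with divided reads and the largest called difference among these, measured 3.12, 3.15 and 2.87 CPM in B6 and 5.84, 5.37 and 5.51 CPM in D2-13B6, a log2 fold change of 0.87 (SE 0.11; adjusted p = 2.92e-06, edgeR). Called shares on chromosomes 2, 7 and 17 were 34.8% of 23, 45.1% of 91 and 56.5% of 46.

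In the pathways that the medium acts on, targets of MAPK signalling were mostly lower, 4 of 16 higher and 10 lower (14 called, 87.5%), with a median of -0.48. Spry2, a feedback inhibitor of receptor tyrosine kinases, measured 125, 125 and 125 CPM in B6 and 25.4, 25.9 and 24.9 CPM in D2-13B6, a log2 fold change of -2.30 (SE 0.041; adjusted p = 2.04e-17, edgeR). The immediate early gene Fos measured 55.3, 51.2 and 53.3 CPM in B6 and 27.5, 28.1 and 29.9 CPM in D2-13B6, a log2 fold change of -0.90 (SE 0.047; adjusted p = 2.74e-11, edgeR), and Spry4, Dusp6 and Dusp5 fell, with log2 fold changes of -0.71, -0.68 and -0.67. Spred2, on chromosome 11, rose, with a log2 fold change of 0.64, and Spry1 and Etv5 rose, with log2 fold changes of 0.49 and 0.22. Spry2 was lower on the D2 background on the D2 segment as well, at -0.53, whereas the other 15 were higher there, and the difference between segment alleles was called for 14 of the 16. The fibroblast marker sums given above moved with the list, lower in D2-13B6 than in B6 and higher in D2 than in B6-13D2; their part in the result was not tested.

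Wnt targets gave 6 higher and 3 lower of 14, with a median of 0.13. Lef1 is described above; the intestinal and trophectoderm factor Cdx2 measured 1.19, 1.01 and 1.46 CPM in B6 and 4.17, 4.37 and 4.93 CPM in D2-13B6, a log2 fold change of 1.88 (SE 0.19; adjusted p = 1.38e-07, edgeR). Its relative Cdx1 measured 38.9, 35.3 and 41.7 CPM in B6 and 17.3, 14.9 and 16.1 CPM in D2-13B6, a log2 fold change of -1.26 (SE 0.069; adjusted p = 4.69e-11, edgeR). The feedback genes Axin2, Znrf3 and Notum rose, with log2 fold changes of 0.17, 0.77 and 0.78; all 3 are on chromosome 11, and Notum has divided reads. Genes of the LIF and STAT3 pathway gave 2 higher and 8 lower of 12 (median -0.25), or 4 and 6 with TMM computed without chromosome 11. The kinase gene Pim3 measured 94.6, 91.6 and 111 CPM in B6 and 58.7, 61.3 and 64.2 CPM in D2-13B6, a log2 fold change of -0.69 (SE 0.066; adjusted p = 7.28e-08, edgeR), and the feedback inhibitor Socs3, on chromosome 11, rose, with a log2 fold change of 0.31.

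BMP signalling and its Id targets gave 1 higher and 6 lower of 9, with a median of -0.32. Id3 measured 110.1, 103 and 123 CPM in B6 and 56.3, 54.8 and 54.6 CPM in D2-13B6, a log2 fold change of -1.02 (SE 0.073; adjusted p = 1.95e-09, edgeR). Id1 measured 22.3, 22.8 and 22.7 CPM in B6 and 12.1, 12.9 and 12.3 CPM in D2-13B6, a log2 fold change of -0.86 (SE 0.066; adjusted p = 4.45e-09, edgeR). The inhibitory Smad7 measured 204, 188 and 186 CPM in B6 and 110.1, 106 and 111 CPM in D2-13B6, a log2 fold change of -0.82 (SE 0.053; adjusted p = 4.19e-10, edgeR). The ligand gene Bmp4 fell, with a log2 fold change of -0.31. On the D2 segment 7 of the 9 were higher on the D2 background, among them Id1 at 2.57 and Bmp4 at 2.76, and the difference between segment alleles was called for 7. The fibroblast marker sums moved the same way, and their part in the result was not tested.

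Mesenchymal genes, which are not typical of stem cells, were expressed in all groups and somewhat lower in D2-13B6. Of 12 smooth muscle type contractile genes 0 were higher and 10 lower, with a median of -0.45, and 9 were lower with both other scalings. Cnn1 measured 173, 176 and 176 CPM in B6 and 118, 117 and 109 CPM in D2-13B6, a log2 fold change of -0.61 (SE 0.037; adjusted p = 1.85e-10, edgeR). Tagln measured 497, 515 and 480.4 CPM in B6 and 326, 326 and 336 CPM in D2-13B6, a log2 fold change of -0.60 (SE 0.041; adjusted p = 1.05e-09, edgeR). The actin gene Acta2 measured 1124, 1158 and 1074 CPM in B6 and 811, 818 and 818 CPM in D2-13B6, a log2 fold change of -0.46 (SE 0.037; adjusted p = 9.81e-09, edgeR). Of 14 collagen genes 2 were higher and 9 lower, with a median of -0.24. Col1a1, the chain of fibrillar collagen I, measured 6829.5, 6248 and 6207 CPM in B6 and 5308, 5257 and 5116 CPM in D2-13B6, a log2 fold change of -0.30 (SE 0.050; adjusted p = 5.07e-05, edgeR), while Col18a1 rose, with a log2 fold change of 0.36. Among fibroblast markers 4 were higher and 7 lower of 12, with a median of -0.27: Fn1, with divided reads, and Thy1 fell, with log2 fold changes of -0.46 and -0.33, and Postn and Dcn rose, with log2 fold changes of 0.45 and 1.09. In D2 against B6-13D2 all 14 collagens and 11 of the 12 contractile genes were called higher on the D2 background, with medians of 2.31 and 2.33, and the difference between segment alleles was called for all 14 and for 11 of the 12. The mesenchymal level thus ran in opposite directions in the 2 background comparisons, and B6 and D2-13B6 lay between the extremes.

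Imprinted genes, expressed from 1 parental allele, gave 19 higher and 9 lower of 33 tested, or 20 and 4 with TMM computed without chromosome 11, with a median of 0.29. Of those also called in D2 against B6-13D2, 11 went the same way and 14 the opposite way. The difference between segment alleles was called for 26 of the 33. H19, a maternally expressed RNA, measured 93.96, 88.6 and 92.9 CPM in B6 and 279, 283 and 264 CPM in D2-13B6, a log2 fold change of 1.58 (SE 0.039; adjusted p = 8.61e-16, edgeR). Its paternally expressed neighbour Igf2 measured 444, 467 and 428 CPM in B6 and 409, 411 and 398 CPM in D2-13B6, a log2 fold change of -0.14 (SE 0.039; adjusted p = 0.00657, edgeR) that was not called with either other scaling. Mest measured 31.8, 32.2 and 31.1 CPM in B6 and 74.1, 73.9 and 78.2 CPM in D2-13B6, a log2 fold change of 1.25 (SE 0.055; adjusted p = 2.61e-12, edgeR), with divided reads. Peg3 measured 123, 129 and 123 CPM in B6 and 232, 227 and 229 CPM in D2-13B6, a log2 fold change of 0.87 (SE 0.050; adjusted p = 9.51e-11, edgeR). Snrpn, Plagl1 and Peg10 rose, with log2 fold changes of 0.75, 0.69 and 0.57, Snrpn with divided reads. The growth-restraining gene Phlda2 measured 5.89, 5.88 and 7.07 CPM in B6 and 2.93, 2.32 and 2.76 CPM in D2-13B6, a log2 fold change of -1.23 (SE 0.14; adjusted p = 6e-07, edgeR). In the domain that also holds Dio3, Dlk1 rose, with a log2 fold change of 1.13, so both genes moved in opposite directions.

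Genes of innate immunity and antigen presentation were low to moderate in level. MHC and presentation genes gave 8 higher and 5 lower of 21 (median 0.23), with 10 of the 21 carrying divided reads. The class II gene H2-Eb1 measured 3.07, 3.19 and 2.44 CPM in B6 and 8.94, 7.89 and 8.68 CPM in D2-13B6, a log2 fold change of 1.55 (SE 0.099; adjusted p = 3.99e-10, edgeR). The invariant chain gene Cd74 measured 2.68, 2.81 and 2.79 CPM in B6 and 0.877, 0.996 and 0.885 CPM in D2-13B6, a log2 fold change of -1.58 (SE 0.17; adjusted p = 3.94e-07, edgeR). B2m, the light chain of class I, measured 339, 355 and 345 CPM in B6 and 269, 270.1 and 270.2 CPM in D2-13B6, a log2 fold change of -0.36 (SE 0.038; adjusted p = 2.59e-07, edgeR). Interferon-stimulated genes gave 11 higher and 5 lower of 28 (57.1% called, against 59.0% of all genes), with a median of 0.05. Oas1a, a sensor of double-stranded RNA, measured 18.9, 20.3 and 23.97 CPM in B6 and 50.7, 49.4 and 51.8 CPM in D2-13B6, a log2 fold change of 1.26 (SE 0.066; adjusted p = 2.69e-11, edgeR), with divided reads; Ifi27 and Usp18 rose, with log2 fold changes of 0.99 and 0.90, and the adaptor gene Tmem173 (STING) fell, with a log2 fold change of -0.47.

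Metabolic genes held some large single differences. Glycolysis gave 7 higher and 10 lower of 22, with a median of -0.12. Ldhb, the heart-type lactate dehydrogenase, measured 157, 159 and 177 CPM in B6 and 48.6, 47.1 and 48.1 CPM in D2-13B6, a log2 fold change of -1.78 (SE 0.049; adjusted p = 3.95e-15, edgeR). The muscle-type phosphofructokinase Pfkm measured 74.02, 66.8 and 72.2 CPM in B6 and 41.04, 38.9 and 43.9 CPM in D2-13B6, a log2 fold change of -0.78 (SE 0.049; adjusted p = 2.77e-10, edgeR). The lactate exporter Slc16a1 and the enolase Eno2 rose, with log2 fold changes of 0.46 and 0.65. Nnt, the mitochondrial transhydrogenase on chromosome 13 that carries a known deletion in C57BL/6J, measured 44.7, 44.3 and 43.3 CPM in B6 and 21.6, 21.6 and 21.3 CPM in D2-13B6, a log2 fold change of -1.04 (SE 0.053; adjusted p = 2.16e-11, edgeR). D2 measured 22.9, 24.7 and 26.04 CPM and B6-13D2 53.4, 47.9 and 50.5 CPM, so the B6 background was higher on both segments. The Nnt deletion itself was not looked for, since the counts are per gene and not per exon. Among the redox genes 1 was higher and 8 lower of 13 (median -0.37), with Sod1 at -0.64 and Gpx4 at -0.48. Aass, the first enzyme of lysine breakdown, measured 0.747, 0.588 and 0.943 CPM in B6 and 3.10, 2.99 and 2.65 CPM in D2-13B6, a log2 fold change of 1.94 (SE 0.19; adjusted p = 8.78e-08, edgeR).

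Genes of translation and respiration that were called were mostly lower in D2-13B6, by small amounts. Of 78 cytosolic ribosomal protein genes 4 were higher and 64 lower, with a median of -0.30, and 55 were lower with TMM computed without chromosome 11; 59 have divided reads, and Rps19bp1 is taken in by the name pattern without being a subunit. The 2 extremes, Rpl5 at 2.29 and Rpsa at -1.68, have divided reads, and all 7 members on chromosome 11 lay at or above -0.10. Nuclear oxidative phosphorylation genes, counted with their Ndufaf assembly factors, gave 6 higher and 42 lower of 90 (53.3% called, median -0.14), or 16 and 24 with TMM computed without chromosome 11. Of 13 genes of mitochondrial DNA 1 was higher and 9 lower, with a median of -0.36. The gene mt-Nd1 of a complex I subunit measured 2951, 3406 and 3193 CPM in B6 and 2022, 2040.4 and 2185 CPM in D2-13B6, a log2 fold change of -0.61 (SE 0.059; adjusted p = 8.75e-08, edgeR), while mt-Co1 of complex IV, with divided reads, rose, with a log2 fold change of 0.25. Their summed level, taken over all 13, overlapped between groups, at 29914 to 35569 CPM in B6 and 30488 to 32221 CPM in D2-13B6.

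Genes of cell division control changed modestly. Of 12 genes of the replication helicase 1 was higher and 9 lower (median -0.23), with Mcm4 at 374, 378 and 378 CPM in B6 and 274, 280.3 and 284 CPM in D2-13B6, a log2 fold change of -0.43 (SE 0.035; adjusted p = 8.52e-09, edgeR). In D2 against B6-13D2 all 12 were lower on the D2 background, where the fibroblast marker sums were higher; their part in the result was not tested. Targets of p53 and cell cycle inhibitors gave 9 higher and 6 lower of 18, with a median of 0.07. The pro-apoptotic gene Pmaip1 measured 128, 139 and 136 CPM in B6 and 74.1, 78.7 and 73.6 CPM in D2-13B6, a log2 fold change of -0.83 (SE 0.046; adjusted p = 6.8e-11, edgeR). The p53 cofactor Trp53inp1 measured 281, 274 and 289.8 CPM in B6 and 433, 416 and 427 CPM in D2-13B6, a log2 fold change of 0.60 (SE 0.032; adjusted p = 4.26e-11, edgeR). Cdkn1a, the best known p53 target, measured 411, 425 and 426 CPM in B6 and 401, 401 and 390.1 CPM in D2-13B6 and was not called (edgeR adjusted p = 0.0856).

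Genes known to vary between B6 and D2 gave 4 higher and 2 lower of 9 tested, with a median of 0.27. Glo1 (glyoxalase), Alad (heme synthesis), Wdfy1 and Gpnmb rose, with log2 fold changes of 0.67, 1.16, 1.41 and 1.56, Glo1 with divided reads. Gpnmb measured 35.2, 35.5 and 35.5 CPM in B6 and 104, 103 and 106 CPM in D2-13B6 and Wdfy1 20.3, 19.01 and 18.5 CPM in B6 and 50.6, 50.8 and 51.99 CPM in D2-13B6; both were also higher in D2 than in B6-13D2, at 1.35 and 1.48. The Y-linked genes Ddx3y, Eif2s3y and Uty were detected in all 6 libraries and rose, with log2 fold changes of 0.72, 0.56 and 0.20. Kdm5d was not called at -0.05, and its sign changed with the scaling. Xist, the RNA of X inactivation, measured 117, 108 and 105 CPM in B6 and 148, 143 and 134 CPM in D2-13B6, with divided reads and no strand information in the sources used here.

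Markers of other lineages were checked as lists. Of 13 tested markers of primitive endoderm 4 were higher and 3 lower, of 9 of trophectoderm 4 and 3, of 7 of neural cells 2 and 2, and of 7 of mesoderm 4 and 2. Their summed levels were 2005 to 2067 CPM in B6 and 1582 to 1597 CPM in D2-13B6 for primitive endoderm, most of it from Sparc and Lamb1, which mesenchymal cells also express. Of the 13 primitive endoderm markers 6 were not called, and the median log2 fold change of the list was 0.01. Sox17, a member below 2 CPM, measured 0.483, 0.252 and 0.386 CPM in B6 and 1.67, 1.38 and 1.56 CPM in D2-13B6. Hnf4a, also below 2 CPM, measured 0.571, 0.755 and 0.472 CPM in B6 and 1.43, 1.61 and 1.43 CPM in D2-13B6. These 2 were picked after their values were seen and do not stand for the list. Trophectoderm markers summed to 107 to 123 CPM and 96.3 to 98.9 CPM, neural markers to 108 to 111 CPM and 108 to 111 CPM, and mesoderm markers to 18.1 to 21.7 CPM and 15.8 to 17.2 CPM. Within them Tfap2c, a factor of trophoblast and germ cells, measured 39.1, 39.5 and 44.5 CPM in B6 and 12.1, 11.6 and 11.8 CPM in D2-13B6, a log2 fold change of -1.79 (SE 0.058; adjusted p = 3.34e-14, edgeR). Eomes measured 9.58, 10.1 and 12.3 CPM in B6 and 3.87, 4.23 and 4.39 CPM in D2-13B6, a log2 fold change of -1.36 (SE 0.11; adjusted p = 8e-09, edgeR). Hand1, on chromosome 11, rose, with a log2 fold change of 2.11 at under 3 CPM.

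Among protein-coding genes with undivided reads and no overlap between groups, the largest differences in absolute level came from abundant genes. Thbs1, a matrix glycoprotein, measured 4556, 4668 and 4328 CPM in B6 and 2751, 2743 and 2603 CPM in D2-13B6, a log2 fold change of -0.74 (SE 0.037; adjusted p = 1.6e-11, edgeR). The chaperone Hsp90ab1 measured 4991, 5227 and 5342 CPM in B6 and 4124, 4165 and 4249.9 CPM in D2-13B6, a log2 fold change of -0.31 (SE 0.034; adjusted p = 4.08e-07, edgeR). Col1a1 and mt-Nd1, described above, complete the 4 of these genes that fell most in CPM. The 4 of them that rose most in CPM, the RNA-binding protein Igf2bp1, the nuclear import receptor Kpnb1, the translation factor Eif5a and the ribosome-bound Rack1, are all on chromosome 11. Igf2bp1 measured 472, 449 and 456 CPM in B6 and 851, 830.4 and 841 CPM in D2-13B6, a log2 fold change of 0.87 (SE 0.030; adjusted p = 9.87e-14, edgeR). Kpnb1 measured 951, 958 and 967 CPM in B6 and 1253, 1235 and 1254 CPM in D2-13B6, a log2 fold change of 0.38 (SE 0.032; adjusted p = 1.26e-08, edgeR). Eif5a and Rack1 rose, with log2 fold changes of 0.31 and 0.20, near or below the shift of the chromosome as a whole. Genes with divided reads, such as Fn1, mt-Co1 and Rpl5 described above, are outside this ranking, and some of them differed by more in CPM.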

How the data were processed

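RNA sequencing of 12 libraries was used, 6 of them in the main comparison. The authors deposited 1 table of expected counts per gene, named for EMASE in its title; Bowtie 1.0.0, edgeR 3.34.1 and build mm10 stand in the submitters' processing notes with no role given, and strandedness is not given in the sources used here. Expected counts were rounded, genes were kept by filterByExpr (minimum count 10), and all 12 libraries were fitted as 4 group means with edgeR 4.0.16 in R 4.3.3 (TMM, quasi-likelihood, Benjamini-Hochberg at 0.05). Genes are called whole when every value of the 6 libraries lies within 0.01 of a whole number; they hold 64.5% of reads, and the rest are called divided. Coordinates and biotypes are from GENCODE M21 (GRCm38), in which 42462 of 43346 genes were found. Intervals cover counting error only. In counts simulated for this comparison over 16701 tested genes, edgeR recovered 88.4% of 95 genes changed by 1 on the log2 scale and 100% of 99 changed by 2, with 6 false calls. The simulation gave every gene the same dispersion and left most genes equal in all groups. These data differ from that, so it checks the code and does not give the error rate of the calls above. Named genes were the 10 highest and 10 lowest called protein-coding whole-read genes with no overlap of the groups and a mean log2 CPM of at least 2, the 3 on each side with divided reads, list members that show the range of each list (chosen after their values were seen), the 4 with the largest shared and 4 with the largest opposite differences in both backgrounds, 4 of chromosome 13 and the 4 on each side with the largest CPM difference, these last 3 groups from the same undivided genes. Some genes that these rules chose are not reported here. Members, lists and tests were chosen with earlier results of these data known. Alternatives were DESeq2 1.42.0 and its size factors, other filters, a replicate block, fewer libraries, and scaling without chromosome 11, the last chosen after seeing the data.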

Additional observations from a re-analysis of the deposited data

Results flagged for a closer look

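The background effect was compared between segment alleles with a test of the difference itself, and results where it differed are listed here as values. The log2 fold change of D2-13B6 over B6 minus that of D2 over B6-13D2 differed from 0 for 11059 genes at an edgeR adjusted p below 0.05, 5325 with a positive and 5734 with a negative difference. These are 64.5% of the genes tested. The difference equals congenic minus parental lines, so segment allele and whatever the congenic libraries share cannot be told apart. Of 41 genes chosen by the naming rules, 32 differed in this way, 21 with a positive and 11 with a negative difference; most were chosen for their size in D2-13B6 against B6, which this difference contains, so nothing is read from this count.

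Among genes higher in D2-13B6, the difference was 3.131 for Apoc2, 4.783 for Efhc2, 2.775 for Nxf3, 2.139 for Mmrn2, 1.430 for Sytl3, 0.642 for Ccnb1ip1, -0.471 for Adam23, 1.184 for Lyrm7 and 2.849 for Rtn4rl1. Among genes lower in D2-13B6, it was -0.908 for Pou2f3, -2.253 for Dio3, 0.999 for Elobl and 0.810 for Hal. Where reads were divided, the values were 6.287 for Xlr3c, 1.429 for Pramef17, -0.654 for Gm21887 and -1.581 for Msc. The genes chosen for opposite directions gave 4.148 for Bglap3, -4.441 for Cxcr6 and -4.049 for Cxcl14, where the choice of genes fixes that they differ. On chromosome 13 it was -1.009 for Ddx4, 0.756 for Tfap2a, 0.459 for Glrx and 1.578 for Elovl7. Among abundant genes it was -3.090 for Thbs1, -2.623 for Col1a1, -0.594 for mt-Nd1, 0.162 for Hsp90ab1, 0.712 for Igf2bp1, 0.405 for Kpnb1, 0.328 for Eif5a and 0.514 for Rack1. The last 4 are on chromosome 11, whose genes as a whole were shifted by 0.38 in D2-13B6 against B6 and by -0.02 in D2 against B6-13D2. Of 189 list members named as examples, 141 differed between segment alleles, 84 with a positive and 57 with a negative difference; they were chosen after their values were seen, and the count stands beside the 64.5% of all genes.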

How the results depend on the processing

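Called genes numbered 10120 in the comparison as reported, and 9185 to 10386 over DESeq2, its size factors, no filter, a CPM filter, the replicate block, a fit of the 6 libraries alone and TMM without chromosome 11. Leaving out each replicate in turn gave 9231 to 9597 called genes, 3812 to 3961 of them higher and 5419 to 5651 lower. Asking for an absolute log2 fold change of 1 left 1994 genes, 1188 higher and 806 lower, with 69 on chromosome 13. It left 1011 called the same way in both background comparisons and 4392 that differed between segment alleles. Replicate numbers did not pair the samples, since deviations of same-numbered libraries correlated at -0.125 to 0.068; with the replicate block 10026 genes were called, and all 230 named genes kept their direction and call. Over these settings 3 named genes, none of them called, changed sign. Kdm5d gave 0.001 with DESeq2 size factors and with DESeq2, 0.012 with the 6 libraries alone and 0.037 with TMM without chromosome 11, and leaving out single replicates gave -0.116 to 0.020. Nanog gave 0.035 with DESeq2 size factors and with DESeq2, 0.046 with the 6 libraries alone and 0.071 with TMM without chromosome 11, which gave 0.009 for Cdkn1a. Another 6 named genes (Dppa5a, Smad6, Smc3, Tet1, Trim28 and Zfp42), all below 0.3 in absolute log2 fold change, lost their call when 1 or more single replicates were left out. Fold changes of genes under about 10 counts in a group are limited by depth.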

Other observations

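Other gene families were also counted in D2-13B6 against B6. Of 44 tested genes of the Hist1 cluster of histone genes on chromosome 13, 4 were higher and 8 lower (27.3% called, against 59.0% of all genes), with a median of 0.08, and 38 have divided reads. With the D2 segment in both lines, 23 of them were called higher and 1 lower on the D2 background. The difference between segment alleles was called for 21 of the 44. Clustered protocadherins, cell-surface proteins of neurons, gave 4 higher and 6 lower of 36 (27.8% called), with a median of -0.16, whereas in D2 against B6-13D2 33 were higher and 1 lower. The difference between segment alleles was called for 32 of the 36. The fibroblast marker sums moved the same way, lower in D2-13B6 than in B6 and higher in D2 than in B6-13D2, and their part in the result was not tested. Of 11 tested genes of the Obox family of oocyte homeobox genes, 4 were higher and 2 lower, and 10 have divided reads. Within the serpina3 cluster of protease inhibitors on chromosome 12, Serpina3h measured 0.879, 0.630 and 0.557 CPM in B6 and 2.17, 1.66 and 1.91 CPM in D2-13B6, a log2 fold change of 1.47 (SE 0.27; adjusted p = 0.00016, edgeR). Serpina3m measured 7.34, 8.06 and 7.93 CPM in B6 and 13.95, 13.8 and 15.5 CPM in D2-13B6, a log2 fold change of 0.89 (SE 0.092; adjusted p = 2.16e-07, edgeR). Serpina3i went the other way, at 0.966, 1.55 and 2.06 CPM in B6 and 0.137, 0.0830 and 0.408 CPM in D2-13B6, and was 7.8-fold higher in B6 (exact Poisson 95% interval 5.0 to 12.7, counting error only; edgeR adjusted p = 1.77e-05). With the D2 segment in both lines, 3 of the 5 tested members were called higher and 2 lower on the D2 background. Serpina3m was lower there, with a log2 fold change of -2.95 (edgeR adjusted p = 5.72e-12).

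Among genes of lysine breakdown 2 were higher and 4 lower of 7. Besides Aass, the mitochondrial enzyme Gcdh measured 49.3, 44.8 and 48.7 CPM in B6 and 27.9, 30.4 and 29.1 CPM in D2-13B6, a log2 fold change of -0.71 (SE 0.051; adjusted p = 2e-09, edgeR). Imprinted genes at low level included Zim1, at 0.483, 0.420 and 1.03 CPM in B6 and 1.92, 2.44 and 1.84 CPM in D2-13B6, a log2 fold change of 1.68 (SE 0.31; adjusted p = 0.000173, edgeR).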
